A study of Homo sapiens with 6 samples.

Results

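The genes described here are 36 transcripts of the integrated stress response and of amino acid supply, chosen by symbol and matched to 36 of the 57905 gene identifiers in the deposited tables. They were divided by role into 13 stress factors (ATF4, its partner transcription factors and stress effectors), 11 enzymes of amino acid synthesis, 6 amino acid transporters and 6 tRNA synthetases, and the last 3 groups are called the 23 metabolic genes below. The cells were U87, an established line from a human glioma, and their RNA was sequenced in 3 libraries labelled siRBM47 and 3 labelled control. The protocol gives transfection with 100 pmol of small interfering RNA (siRNA) by a cationic lipid in medium with serum. The labelled target is RBM47, an RNA-binding protein, and the genotype label of the control cells reads WT. Whether control cells were transfected is not stated (their treatment is given as no), and siRNA and transfection cannot be told apart. Nor do the labels name separate cultures for the replicates, so the p-values reflect a spread between libraries that could be technical.

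In the integrated stress response, kinases that sense misfolded protein, amino acid shortage, double-stranded RNA or haem deficiency phosphorylate the translation factor eIF2. Most translation then slows, while the ATF4 mRNA is translated more, so ATF4 activity is set largely at translation and the ATF4 transcript level is a poor guide to it. ATF4 protein, often paired with a C/EBP factor, raises transcription of genes that make, import and charge amino acids and, when stress lasts, of DDIT3 (CHOP), TRIB3 and CHAC1. In glioma cells the serine and asparagine enzymes of this programme are known for feeding growth when nutrients are short.

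The total per library ran from 15580000 to 18130000 counts, rounded, and 14578 genes were tested, all 36 members among them. RBM47 itself was at 3.54, 2.74 and 2.23 CPM (counts relative to the library's total, scaled with edgeR's TMM factors) in the libraries labelled siRBM47 and at 1.62, 1.73 and 5.75 CPM in control. A fall of the targeted gene was not detected (log2 difference -0.11, SE 0.50, adjusted p = 0.942, edgeR), so directions are given between libraries as labelled. Control replicate 3 stood apart from the other control libraries. Its chi-square statistic per degree of freedom over genes was 144.83 and 117.05 against them, while the other 4 pairs within a group had 10.74 to 37.11. With it left out, the log2 difference of RBM47 was 0.76 (SE 0.37, adjusted p = 0.156, edgeR). Several results that rest on it, though not all, are given with and without it. A fit without it keeps the most alike pair of libraries as its controls. Of 5 mesenchymal markers, VIM, CD44, FN1 and COL1A1 were abundant, while THY1 was nearly absent at 0 to 0.514 CPM. Their summed level was 8278 to 11466 CPM in siRBM47 and 7153 to 8559 CPM in control. COL1A1 was at 1706, 2780 and 1678 CPM in siRBM47 and at 578, 571 and 1777 CPM in control (log2 difference 1.07, adjusted p = 0.269, edgeR). Without control replicate 3 its log2 difference was 1.84 (adjusted p = 7.46e-05, edgeR). FN1 had 0.62 with all libraries (adjusted p = 0.277, edgeR) and 0.89 without that one. VIM and CD44 had 0.03 and -0.12 with all libraries. Glial markers summed to 19.0 to 20.7 CPM in siRBM47 and 20.5 to 24.1 CPM in control, most of it NES at 13.1 to 15.2 CPM. AQP4 was at 0 in every library and GFAP at 0.34 to 1.49 CPM. OLIG2 was at 3.26, 4.17 and 4.58 CPM in siRBM47 and at 5.96, 7.02 and 8.41 CPM in control (log2 difference -0.83, adjusted p = 0.19, edgeR). Immune, endothelial and epithelial markers each stayed at or under 5.03 CPM in sum. The 4 neuronal markers summed to 18.4 to 29.4 CPM in siRBM47 and 13.1 to 17.2 CPM in control, nearly all of it SNAP25, and their part in the results below was not tested.

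The larger differences were among the stress factors and ran in both directions. In the libraries labelled siRBM47, DDIT3 and CEBPB fell, DDIT4 and SESN2 were lower without passing the threshold over all genes, NUPR1 was higher without passing it, and the libraries of both groups overlapped for ATF4 and for most metabolic genes. By edgeR's quasi-likelihood test with Benjamini-Hochberg adjustment over all genes and a threshold of 0.05, 2 of the 36 genes were lower and 0 were higher. The background was 0.137% of all tested genes called lower and 0.0823% called higher. The members were chosen with earlier results of these data known, so their shares beside any background are description only. At an unadjusted p under 0.05 by edgeR, 7 members were lower and 1 was higher, against 8.94% and 7.15% of all tested genes. DESeq2 called 5 members lower and 1 higher (2.63% and 1.79% of all tested genes), and limma-voom 3 lower and 0 higher (0.144% and 0.0892%). Median log2 differences were -0.35 over the stress factors, 0.04 over the synthesis enzymes, -0.03 over the transporters and -0.01 over the tRNA synthetases, against -0.01 over all genes tested. Without control replicate 3 these medians were -0.45, 0.11, -0.03 and 0.19 in the same order, against 0.02 over all genes tested. The groups did not overlap for 12 of the 36 genes (10 lower, 2 higher), which is 33.3%, and for 22.6% of all tested genes. Among the metabolic genes this share was 21.7%, near the background. In bulk samples, fewer cells that express a gene and less RNA per cell cannot be told apart.

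**Figure D1:**
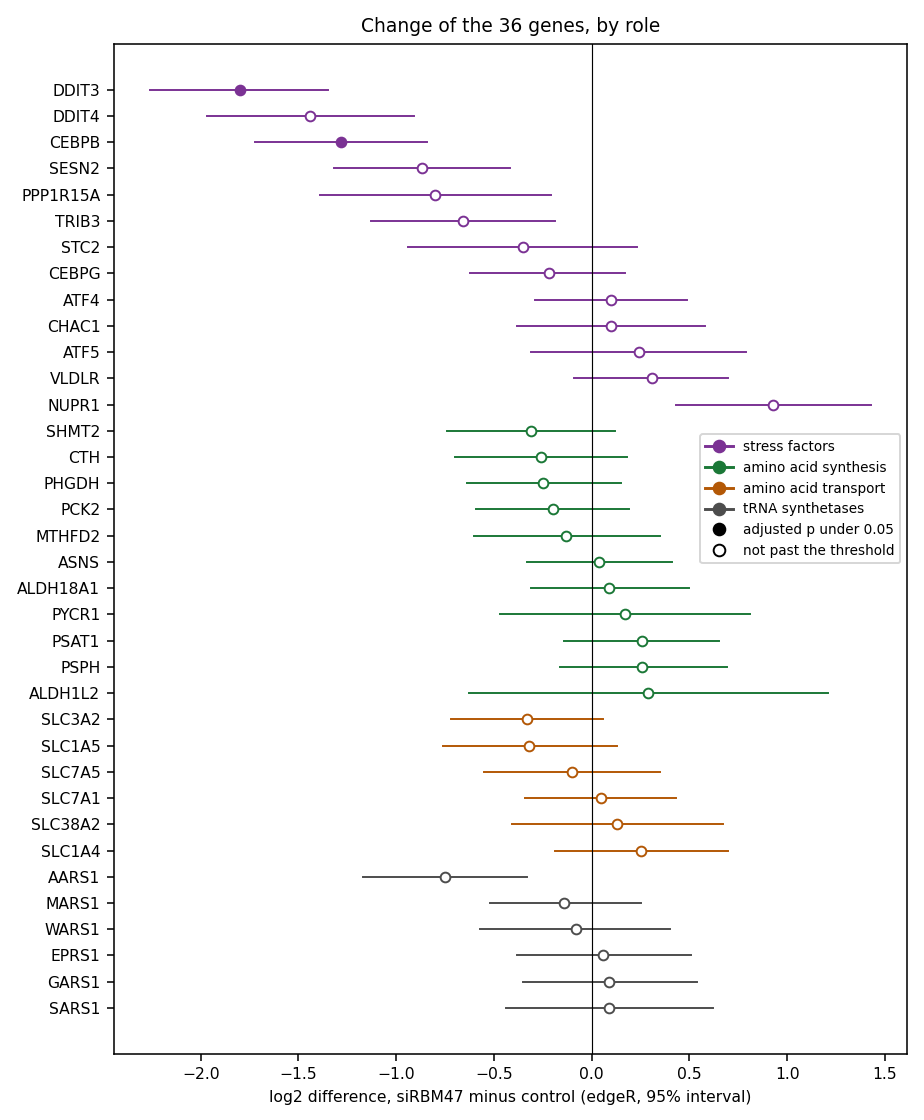
Log2 difference, siRBM47 minus control, with its 95% interval by edgeR for the 36 genes, sorted within each role. The stress factors span -1.80 to 0.93 on this scale, while the synthesis enzymes lie between -0.31 and 0.29, and DDIT3 and CEBPB are the filled points past the threshold.

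ATF4 encodes the transcription factor at the centre of the response. Its transcript was at 496, 565 and 548 CPM in the siRBM47 libraries and at 562, 489 and 452 CPM in control. The groups overlapped, and the log2 difference was 0.10 (SE 0.18, 95% interval -0.29 to 0.49, adjusted p = 0.823, edgeR). ATF4 was also one of the most abundant members per length, at 212 ± 12.9 FPKM in siRBM47 and 197 ± 22.7 FPKM in control (SD, n = 3 each). The interval bounds any difference of the transcript and says nothing of ATF4 translation. ATF5, a related factor also controlled through translation, was at 23.0, 37.1 and 24.9 CPM in siRBM47 and at 26.9, 26.1 and 18.9 in control, with overlapping groups. CEBPG, a dimer partner of ATF4, was at 87.1 ± 9.86 CPM in siRBM47 and 102 ± 7.09 CPM in control (SD, n = 3), a log2 difference of -0.22 (SE 0.18).

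To set the transcripts beside the known DNA element of this programme, the 250 bases before the RefSeq start of each gene (GRCh38.p14) were searched on both strands for TGATGNAA, the core of the C/EBP-ATF response element (CARE). Promoters were found for 31 of the 36 members, not for ALDH1L2, NUPR1, PSPH, PYCR1 and SHMT2. A match was present in 3 of the 31 (9.68%), in 1.51% of the promoters of tested genes and in 3.19% of all promoters. The search for TGACGTCA, the cAMP response element that ATF factors also bind, matched 1 member (3.23%), against 3% of the promoters of tested genes and 1.77% of all promoters. The 4 matches are shown with their surroundings because they are the matches found among the members; capitals mark the match, and in CHAC1 and AARS1 it reads on the opposite strand.
ASNS, chr7:97872458-97872487, minus strand: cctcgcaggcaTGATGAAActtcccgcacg
CHAC1, chr15:40953251-40953280, plus strand: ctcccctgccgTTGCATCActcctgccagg
AARS1, chr16:70289675-70289704, minus strand: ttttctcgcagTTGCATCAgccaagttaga
PPP1R15A, chr19:48872352-48872381, plus strand: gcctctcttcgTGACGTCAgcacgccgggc
The matches begin 68 bases before the start of ASNS, 209 before that of CHAC1, 187 before that of AARS1 and 58 before that of PPP1R15A. Of these 4 genes 0 passed by edgeR with all libraries, and their log2 differences were 0.04 for ASNS, 0.10 for CHAC1, -0.75 for AARS1 and -0.80 for PPP1R15A. A match describes the letters of the reference only.

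DDIT3 encodes CHOP, the C/EBP-family factor induced in lasting stress. It was at 35.8, 31.5 and 32.7 CPM in siRBM47 and at 139, 116 and 94.3 CPM in control, and no siRBM47 library came near the lowest control. The fall was 3.49-fold (log2 difference -1.80, SE 0.20, 95% interval -2.26 to -1.35, adjusted p = 0.00955, edgeR). The gene lies on chromosome 12 (GRCh38, 57516588 to 57521737, minus strand), and exons of MARS1 and MBD6 cover 31.6% of its exon bases on the other strand, and another annotated gene on its own strand shares 8.0% of them, which leaves the DDIT3 counts uncertain. The library kit does not mark strand, so reads of overlapping exons cannot be assigned to one gene. MARS1, itself a member, was at 163, 199 and 199 CPM in siRBM47 and at 211, 207 and 199 in control, a log2 difference of -0.14 (SE 0.17). MBD6 was at 19.6 ± 6.23 CPM in siRBM47 and 33.4 ± 6.12 CPM in control (SD, n = 3; log2 difference -0.77, SE 0.27, adjusted p = 0.211, edgeR). The part of these overlaps in the DDIT3 value was not tested. Over 5% of exon bases are overlapped on the other strand in 12 members and on the same strand in 3, DDIT3 among both. Others are MTHFD2 (33.2%), SLC1A5 (23.8%), ATF5 (21.2%) and PYCR1 (15.6%, and 14.1% on its own strand). Counts of these members carry the same uncertainty wherever the overlapping genes were in the annotation used for counting, which was not checked. DDIT3 was still called when any 1 control library was left out. Without siRBM47 replicate 1, 2 or 3 its log2 difference was -1.86, -1.75 and -1.79 and the call was lost (adjusted p = 0.162, 0.124 and 0.152, edgeR), as was every other call in the table.

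CEBPB, a C/EBP factor that dimerises with ATF4 and with CHOP, was at 237, 311 and 225 CPM in siRBM47 and at 684, 607 and 583 CPM in control. The groups did not overlap, and the fall was 2.43-fold (log2 difference -1.28, SE 0.19, 95% interval -1.72 to -0.84, adjusted p = 0.0386, edgeR). It was the most abundant of the 36 genes per length over the 6 libraries, at a mean of 238 FPKM. An annotated antisense gene, not found by symbol among the counted genes, overlaps 11.8% of its exon bases. Among the fits that leave out 1 library, the call was kept only without control replicate 3 (log2 difference -1.33, adjusted p = 0.000124, edgeR). Without any other single library the log2 difference was -1.42 to -1.19 and the call was lost.

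DDIT4 (REDD1), an inhibitor of mTORC1 signalling that rises under many stresses, was at 155, 270 and 224 CPM in siRBM47 and at 571, 680 and 507 CPM in control. The groups did not overlap and the log2 difference was -1.44 (SE 0.24, 95% interval -1.97 to -0.91), just outside the threshold (adjusted p = 0.0522, edgeR). Its adjusted p was 8.73e-06 by DESeq2 and 0.0485 by limma-voom. Of its exon bases, 41.2% are overlapped by an annotated antisense gene, which was not found by symbol among the counted genes. SESN2 (sestrin 2), a leucine sensor that also restrains mTORC1, was at 52.1, 69.1 and 73.9 CPM in siRBM47 and at 108, 113 and 136 CPM in control. All siRBM47 values lay under all control values, with a log2 difference of -0.87 (SE 0.20, adjusted p = 0.102 by edgeR and 0.00778 by DESeq2).

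PPP1R15A (GADD34), the phosphatase subunit that reverses eIF2 phosphorylation, was at 25.7, 43.7 and 31.1 CPM in siRBM47 and at 73.5, 58.7 and 43.1 CPM in control. The groups met at siRBM47 replicate 2 and control replicate 3, and the log2 difference of -0.80 (SE 0.26) had an adjusted p of 0.191 by edgeR. TRIB3, a pseudokinase induced by ATF4 and CHOP, was at 34.7, 38.1 and 36.6 CPM in siRBM47 and at 53.1, 46.6 and 72.9 CPM in control. The siRBM47 values were lower throughout and tight, while the control values were spread (log2 difference -0.66, SE 0.21, adjusted p = 0.18, edgeR). CHAC1, a glutathione-degrading enzyme and another target of this pathway, was at 33.4, 53.8 and 44.5 CPM in siRBM47 and at 45.4, 38.2 and 39.1 CPM in control. Its groups overlapped (log2 difference 0.10, SE 0.21, 95% interval -0.38 to 0.58, adjusted p = 0.854, edgeR).

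NUPR1, a small stress-induced chromatin protein, ran the other way. It was at 73.5, 115 and 93.2 CPM in siRBM47 and at 49.3, 41.0 and 57.6 CPM in control, with all siRBM47 libraries above all control libraries. The log2 difference was 0.93 (SE 0.22, 95% interval 0.43 to 1.43, adjusted p = 0.106 by edgeR and 0.00977 by DESeq2). VLDLR, a lipoprotein receptor raised by ATF4 signalling, was at 124, 117 and 112 CPM in siRBM47 and at 85.9, 90.4 and 109 CPM in control. The groups were apart by a small gap between siRBM47 replicate 3 and control replicate 3 (log2 difference 0.31, SE 0.18, adjusted p = 0.433, edgeR). STC2, a secreted glycoprotein of the stress response, was at 274, 300 and 251 CPM in siRBM47 and at 424, 416 and 214 CPM in control. Here control replicate 3 lay under every siRBM47 library while the other controls lay above them. The log2 difference was -0.35 with all libraries (adjusted p = 0.539, edgeR), and it was -0.61 with that library left out (SE 0.14, adjusted p = 0.0078, edgeR).

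**Figure D2:**
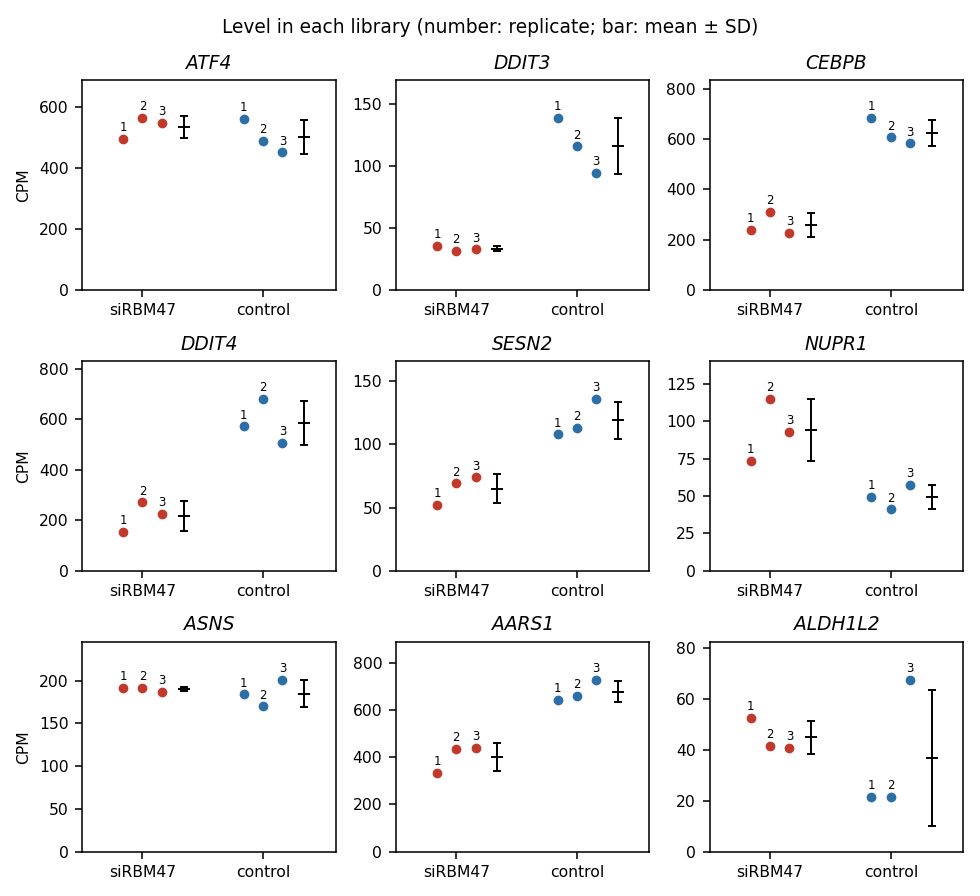
CPM of 9 of the genes in each library, with siRBM47 left of control, replicate numbers beside the points and the mean ± SD (n = 3) to the right of each group. DDIT3, CEBPB, DDIT4, SESN2 and AARS1 are lower in every siRBM47 library, NUPR1 is higher, ATF4 and ASNS overlap, and control replicate 3 alone sets the spread of ALDH1L2.

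Of the 11 synthesis enzymes 0 passed in either direction by edgeR, and 0 had an unadjusted p under 0.05. DESeq2 and limma-voom also called 0. ASNS, which makes asparagine and is a standard readout of ATF4 activity, was at 192, 192 and 187 CPM in siRBM47 and at 184, 170 and 201 CPM in control. The siRBM47 libraries fell within the control range, and the 95% interval of the log2 difference was -0.33 to 0.41. Of the exon bases of ASNS, 44.6% are shared on the same strand with a second annotated gene, so its counts are uncertain. The serine pathway runs through PHGDH, PSAT1 and PSPH in that order. PHGDH was at 380, 484 and 472 CPM in siRBM47 and at 541, 514 and 531 CPM in control, with lower siRBM47 values throughout. PSAT1 was at 299, 273 and 286 CPM in siRBM47 and at 216, 225 and 276 CPM in control, with control replicate 3 inside the siRBM47 range. PSPH was at 31.5, 35.4 and 41.7 CPM in siRBM47 and at 29.6, 27.8 and 33.1 CPM in control. The first enzyme of the pathway thus had a log2 difference of -0.25 (SE 0.18) and the next ones of 0.26 (SE 0.18) and 0.26 (SE 0.19), with adjusted p of 0.529, 0.506 and 0.532 by edgeR.

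In the 3 mitochondrial one-carbon enzymes among the members, control replicate 3 differed from the other controls. ALDH1L2, a mitochondrial folate dehydrogenase, was at 52.6, 41.5 and 40.9 CPM in siRBM47 and at 21.5, 21.5 and 67.6 CPM in control. Control replicate 3 was above every siRBM47 library and the other controls were below them. The log2 difference was 0.29 (SE 0.41, adjusted p = 0.773, edgeR) with all libraries. Without control replicate 3 it was 1.07 (SE 0.19, adjusted p = 0.00163, edgeR). MTHFD2 was at 183, 166 and 170 CPM in siRBM47 and at 156, 165 and 245 CPM in control, and its log2 difference of -0.13 turned to 0.11 without that library. SHMT2 was at 148, 185 and 180 CPM in siRBM47 and at 228, 232 and 174 CPM in control, with control replicate 3 inside the siRBM47 range. For these 3 enzymes control replicate 3 therefore lay on the siRBM47 side of, or beyond, the other controls.

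Proline is made from glutamate by ALDH18A1 and PYCR1. ALDH18A1 was at 156 ± 13.3 CPM in siRBM47 and 146 ± 18.5 CPM in control, and PYCR1 was at 51.0, 73.4 and 74.0 CPM in siRBM47 and at 44.2, 46.4 and 85.8 CPM in control. PYCR1 again had control replicate 3 on top, and without it the log2 difference was 0.55 (SE 0.19, adjusted p = 0.0541, edgeR) instead of 0.17. PCK2, the mitochondrial phosphoenolpyruvate carboxykinase, was at 54.4, 64.7 and 63.2 CPM in siRBM47 and at 72.9, 66.9 and 69.6 CPM in control. CTH, which makes cysteine from cystathionine, was at 14.8 ± 1.17 CPM in siRBM47 and 17.7 ± 1.44 CPM in control (SD, n = 3; log2 difference -0.26, SE 0.20), from 247, 258 and 286 raw counts in siRBM47 and 244, 302 and 363 in control. Scaled for depth, PCK2 and CTH were lower in every siRBM47 library, by less than the test could call (adjusted p = 0.607 and 0.547, edgeR).

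Of the 6 transporters, 0 were called by edgeR, DESeq2 or limma-voom and 0 were at an unadjusted p under 0.05 by edgeR. SLC3A2, the heavy chain that carries several amino acid exchangers to the membrane, was at 147, 178 and 146 CPM in siRBM47 and at 211, 195 and 186 CPM in control. It was the only transporter whose groups did not overlap (log2 difference -0.33, SE 0.17, 95% interval -0.72 to 0.06, adjusted p = 0.39, edgeR). Its light chain SLC7A5 (LAT1), which imports leucine, was at 89.3, 139 and 109 CPM in siRBM47 and at 127, 117 and 118 CPM in control, with the control values inside the siRBM47 range. The glutamine and neutral amino acid carrier SLC1A5 was at 220, 304 and 263 CPM in siRBM47 and at 300, 294 and 385 CPM in control (log2 difference -0.32, SE 0.20). SLC1A4, its relative, was at 37.7, 53.3 and 43.6 CPM in siRBM47 and at 33.4, 37.9 and 41.8 CPM in control (log2 difference 0.25, SE 0.20). SLC38A2, a sodium-coupled carrier induced by amino acid shortage, was at 389, 251 and 270 CPM in siRBM47 and at 240, 237 and 354 CPM in control. One library of each group, siRBM47 replicate 1 and control replicate 3, stood above the rest. The arginine and lysine carrier SLC7A1 was at 128 ± 13.4 CPM in siRBM47 and 124 ± 2.79 CPM in control (SD, n = 3).

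Among the tRNA synthetases, which charge tRNAs with their amino acids, AARS1 was set apart by its values. AARS1, the alanine enzyme, was at 333, 435 and 438 CPM in siRBM47 and at 643, 659 and 727 CPM in control, with a wide gap between the groups. The log2 difference was -0.75 (SE 0.19, 95% interval -1.17 to -0.33, adjusted p = 0.114 by edgeR and 0.012 by DESeq2), and 0 of the 6 synthetases passed by edgeR or limma-voom. GARS1, for glycine, was at 297, 342 and 345 CPM in siRBM47 and at 265, 278 and 379 CPM in control. SARS1, for serine, was at 318, 412 and 477 CPM in siRBM47 and at 296, 356 and 481 CPM in control. In both, control replicate 3 was the highest library of all. WARS1, for tryptophan, was at 227, 259 and 288 CPM in siRBM47 and at 226, 240 and 354 CPM in control, and EPRS1, the joint glutamate and proline enzyme, at 125, 102 and 114 CPM in siRBM47 and at 95.5, 97.3 and 133 CPM in control. The 95% intervals of these 4 synthetases reached from -0.57 at the lowest to 0.62 at the highest on the log2 scale.

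**Figure D3:**
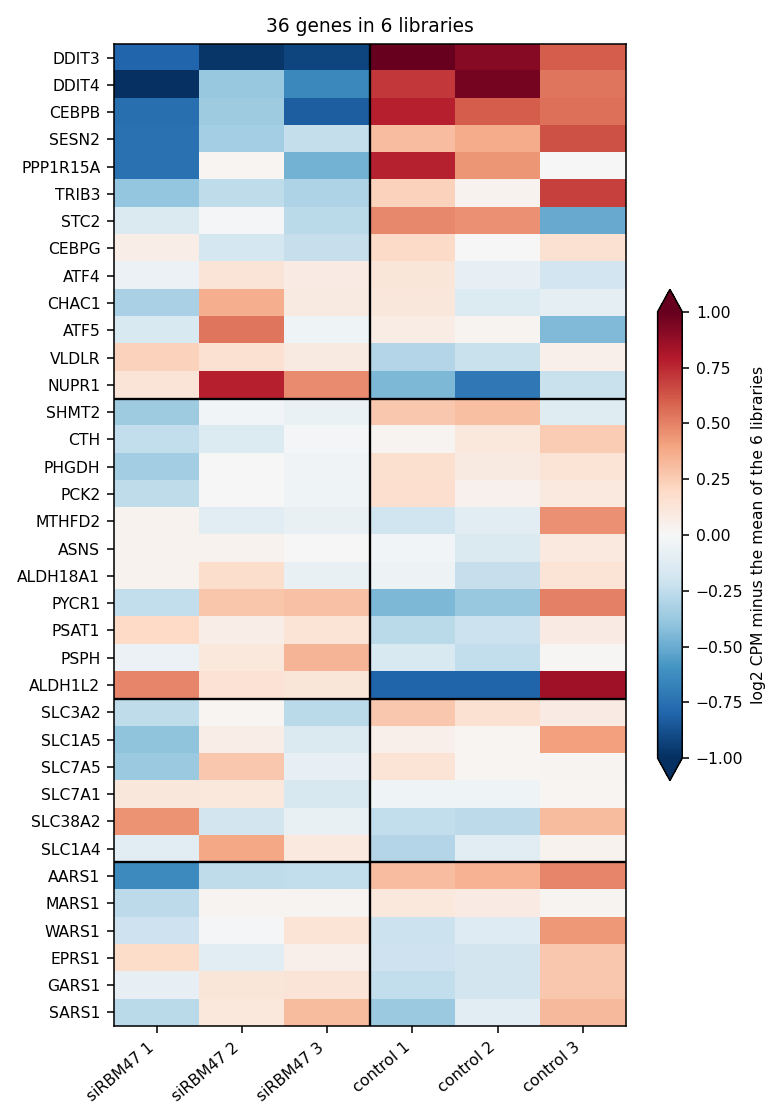
Log2 CPM of each gene minus its mean over the 6 libraries, with siRBM47 libraries left of control libraries and lines between the 4 roles; colours saturate at 1 unit. The upper stress factors separate the groups, while control replicate 3 is higher than control replicates 1 and 2 for many enzymes and synthetases.

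The contrast of stress factors with metabolic genes was taken within each library. Each gene's log2 CPM was centred on its mean over the 6 libraries, and the median over the metabolic genes was subtracted from the median over the stress factors. The difference was -0.12, -0.06 and -0.22 in the siRBM47 libraries (mean -0.13) and 0.28, 0.15 and -0.09 in control (mean 0.11). Control replicate 3 lay inside the siRBM47 range, so the groups overlapped, and no test was made on this choice of genes. In control replicate 3 the stress factors were a median of 0.14 below the mean of the other controls on the log2 scale. The synthesis enzymes were 0.21 above it, the transporters 0.14 above it and the tRNA synthetases 0.47 above it, while the median over all genes tested was 0.01. A different measure takes each gene's fitted log2 difference between the groups first, and its values need not match those within libraries. By it, the median of the stress factors minus that of the metabolic genes was -0.40 with all libraries and -0.56 without control replicate 3. Leaving out control replicate 1 gave -0.14, leaving out control replicate 2 gave -0.26 and leaving out siRBM47 replicate 3 gave -0.24.

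Without control replicate 3, 7 of the 36 genes were lower and 2 were higher by edgeR, against a background of 11.2% of genes called lower and 9.97% called higher. Of these 9 genes, 7 were stress factors (DDIT3, DDIT4, CEBPB, SESN2, PPP1R15A and STC2 lower, NUPR1 higher), and the others were AARS1, lower, and ALDH1L2, higher. The remaining 21 metabolic genes and ATF4, ATF5, CEBPG, CHAC1, TRIB3 and VLDLR were not called. The log2 difference of ATF4 was 0.03 (SE 0.14) in this fit and that of ASNS 0.11 (SE 0.14).

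**Figure D4:**
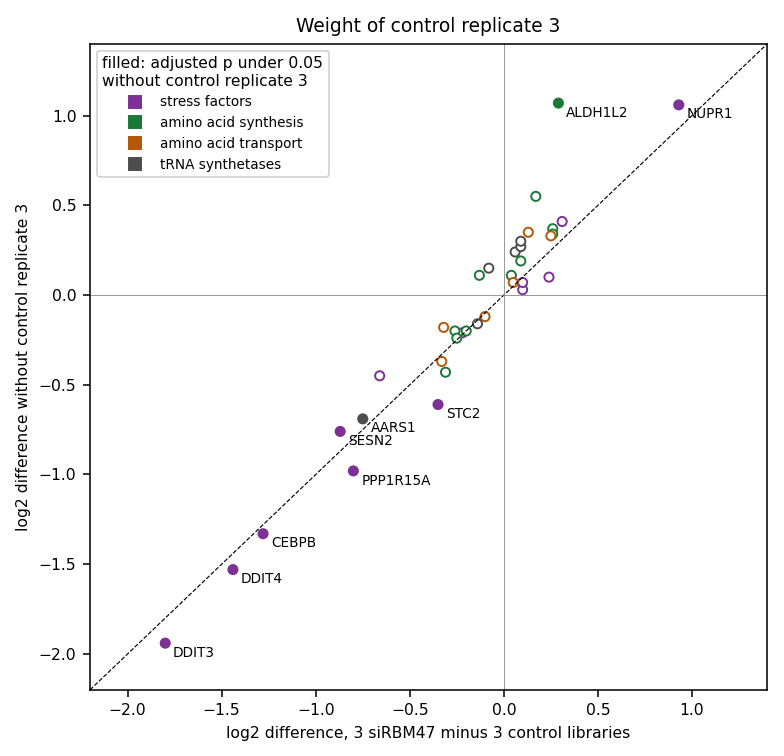
Log2 difference of each gene without control replicate 3 against that with all 6 libraries; the dashed line marks equal values and filled points have an adjusted p under 0.05 without that library. DDIT3, DDIT4 and CEBPB stay near the line, while ALDH1L2 moves to 1.07 without that library, against 0.29 with it.

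Other genes of the pathway were taken from 6 further lists of 93 symbols. Of these, 92 were found in the tables and 87 were tested, and 0 were called by edgeR in either direction, while an unadjusted p under 0.05 was found for 12 that were lower and 5 that were higher (8.94% and 7.15% of all tested genes). DESeq2 called 4 of them lower and 1 higher (GDF15, GADD45A, VARS1 and VARS2 lower, CBS higher), against 2.63% and 1.79% of all tested genes, and limma-voom called 0. Without control replicate 3, edgeR called 10 of them lower and 10 higher, against 11.2% and 9.97% of all tested genes. Their median log2 difference was -0.02, against -0.01 over all genes. Upstream of ATF4, the 16 genes of the eIF2 kinases, eIF2 and eIF2B had a median of 0.08. EIF2B1, a subunit of the exchange factor that phosphorylated eIF2 blocks, was at 82.0 ± 2.71 CPM in siRBM47 and 61.9 ± 6.53 CPM in control (SD, n = 3; log2 difference 0.41, adjusted p = 0.292, edgeR). GCN1, which activates the amino acid sensor kinase, was at 75.1 ± 9.05 CPM in siRBM47 and 105 ± 12.1 CPM in control (SD, n = 3; log2 difference -0.49, adjusted p = 0.246, edgeR). Other stress targets had a median of -0.15 over 16 tested genes, 5 of them lower and 0 higher at an unadjusted p under 0.05, beside the same 8.94% and 7.15% of all tested genes. GADD45A, a growth arrest protein, was at 75.2, 69.6 and 53.8 CPM in siRBM47 and at 128, 119 and 178 CPM in control, without overlap (log2 difference -1.10, SE 0.22, adjusted p = 0.0741 by edgeR and 0.00113 by DESeq2). GDF15, a secreted stress cytokine, was at 8.84, 9.32 and 7.99 CPM in siRBM47 and at 16.2, 13.9 and 56.1 CPM in control. It was lower in every siRBM47 library, and control replicate 3 set the size of its log2 difference, which was -1.72 with all libraries and -0.79 without that one.

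Further enzymes and carriers again lay on both sides of 0. CBS, which makes cystathionine one step before CTH, was at 13.6, 16.3 and 15.8 CPM in siRBM47 and at 8.06, 8.40 and 10.0 CPM in control, with higher siRBM47 values throughout (log2 difference 0.79, SE 0.22, adjusted p = 0.135 by edgeR and 0.0342 by DESeq2). GPT2, the mitochondrial alanine transaminase, was at 168 ± 8.19 CPM in siRBM47 and 119 ± 7.76 CPM in control (log2 difference 0.50, adjusted p = 0.198, edgeR). The taurine carrier SLC6A6 and the mitochondrial glutamate carrier SLC25A22 had log2 differences of -0.60 and -0.61 (adjusted p = 0.254 and 0.282, edgeR). Among the other synthetases the groups did not overlap for 5 of 14 cytosolic enzymes (3 lower, 2 higher) and for 6 of 16 mitochondrial ones (4 lower, 2 higher), against 22.6% of all tested genes. The valine enzymes of both compartments were among those lower in every siRBM47 library. Cytosolic VARS1 was at 84.7 ± 7.55 CPM in siRBM47 and 137 ± 16.3 CPM in control, and mitochondrial VARS2 at 21.4 ± 2.80 CPM in siRBM47 and 35.4 ± 0.715 CPM in control (SD, n = 3; adjusted p = 0.119 and 0.117 by edgeR, 0.0233 and 0.0225 by DESeq2). The mitochondrial alanine enzyme AARS2 had a log2 difference of -0.66 (adjusted p = 0.186, edgeR), close to that of AARS1, while the threonine enzyme TARS1 was at 227 ± 23.5 CPM in siRBM47 and 169 ± 6.03 CPM in control (log2 difference 0.42, adjusted p = 0.27, edgeR).

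Per length, the most abundant members over the 6 libraries were CEBPB, ATF4 and DDIT4 at means of 238, 204 and 193 FPKM, and the least abundant were CTH, SLC1A4 and ALDH1L2 at 6.68, 5.90 and 4.77 FPKM. In the siRBM47 libraries the leading stress factors changed place. ATF4 was at 212 ± 12.9 FPKM there, above CEBPB at 139 ± 24.0 and DDIT4 at 104 ± 27.0, whereas in control CEBPB was at 336 ± 29.6 and DDIT4 at 282 ± 43.1, above ATF4 at 197 ± 22.7 FPKM (SD, n = 3 each). AARS1 was the most abundant synthetase in control at 149 ± 9.03 FPKM, and in siRBM47 it was at 88.8 ± 13.0 FPKM beside SARS1 at 104 ± 20.6.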

How the data were processed

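The data are 6 libraries of total RNA from U87 cells. The submitters' processing notes name HISAT2 2.0.5, featureCounts 1.5.0-p3 and the build hg38. What annotation release, strand setting and read filters were used is not given in the sources used here. Per the labels' protocols, the kit does not mark strand. Each deposited table pairs raw counts with FPKM values, which the authors scaled by gene length and depth, per the file headers. Counts were used for all tests and FPKM only to compare levels between genes. Identifiers were matched to symbols through a reference table (5909 without one), and positions and overlaps are from GENCODE release 29 (GRCh38). That release lacks 5567 of the deposited identifiers, so it differs from the annotation used for counting. Promoters are RefSeq's, on GRCh38.p14.

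After edgeR's filterByExpr (minimum count 10), 14578 genes were tested in edgeR 4.0.16 (TMM, quasi-likelihood, group as the sole term) under R 4.3.3, with Benjamini-Hochberg adjustment at 0.05. The SE is the absolute log2 difference over the square root of F. No pair of libraries within a group agreed within sampling noise. The fit was also run on simulated counts with known changes. Those counts held no library set apart as control replicate 3 is, so that run says nothing of its weight.

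The members and lists were chosen with earlier results of these data known. Values in every library are given for called members, ATF4 and the 4 of each role with the largest absolute difference, and for others where they bear on these. From each list of other pathway genes, those called and the 2 with the smallest p are named. Alternatives were RLE and upper quartile scaling, DESeq2 1.42.0, limma-voom (limma 3.58.1), no filter, a minimum count of 50 (edgeR), blocking on the replicate number and leaving out each library.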

Additional observations from a re-analysis of the deposited data

How the results depend on the processing

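Of the 36 members, 2 were called lower and 0 higher by edgeR with all libraries. The number lower was 5 by DESeq2, 6 with no filter and 0 to 7 when a single library was left out. The number higher was 1 by DESeq2, 1 with no filter and 0 to 2 when a single library was left out. Over all genes 32 of 14578 tested were called, against 644 of 14578 by DESeq2 and 804 of 27110 with no filter. When a single library was left out, 0 to 3156 were called, the highest count being of 14889 tested. Each 0 for lower members belongs to leaving out an siRBM47 library, where 6 or 7 members were lower at an unadjusted p under 0.05 by edgeR, and 3156 belongs to leaving out control replicate 3. The cause of these shifts was not tested. With 1 library left out, the median log2 difference of the stress factors ran from -0.45 to -0.19 (-0.35 with all) and the difference from that of the metabolic genes from -0.56 to -0.14 (-0.40 with all). Under RLE and upper quartile scaling all 36 members kept their direction and side of the threshold. In the 7 fits of all 6 libraries other than the one reported, 239 of 252 member values did so, and 190 of 216 with 1 library left out.

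Members near 0 changed sign when a library was left out. Their log2 differences then ran from -0.05 to 0.27 for CHAC1, -0.00 to 0.11 for ASNS, -0.23 to 0.11 for MTHFD2, -0.27 to 0.04 for SLC7A5, -0.09 to 0.35 for SLC38A2, -0.19 to 0.15 for WARS1, -0.05 to 0.30 for SARS1 and -0.01 to 0.24 for EPRS1. Same-numbered libraries deviated from their group means with correlations of -0.04, 0.13 and 0.12 over genes. By this measure siRBM47 replicates 1 and 2 correlated best with another number. With 3 libraries per group, these values cannot decide whether the title numbers pair the libraries. With a replicate block 39 genes were called, DDIT4 was called (adjusted p = 0.0394, edgeR) and CEBPB was not (log2 difference -1.29, adjusted p = 0.0535, edgeR). Every member had at least 244 counts in every library.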
